A study of Mus musculus with 4 samples.

Results

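Tetraspanins are small membrane proteins, and transcripts of 10 of them were compared between γδ T cells of mouse fat that did and did not express a reporter of PLZF. The genes were Cd9, Cd37, Cd53, Cd63, Cd81, Cd82, Cd151, Tspan13, Tspan31 and Tspan32, found by their deposited symbols. They sit at 11 of 46797 loci, and are 10 of 46165 genes once overlapping loci of one symbol are summed and the rRNA precursor is left out. PLZF is a transcription factor encoded by Zbtb16, and γδ T cells are lymphocytes whose antigen receptor is built of γ and δ chains. The donors of both subsets were male C57Bl/6 mice of 16 to 22 weeks with a GFP reporter of PLZF, fed freely, and the fat was epididymal. PLZF+ cells gave 2 libraries (A7 and B7) and PLZF- cells gave 2 (A6 and B6), every one a pool of 10 mice, and values are given in that order of libraries. Whether the subsets share mice is not stated, and p-values here cover only the spread of pools.

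A tetraspanin crosses the membrane several times and has a small and a large extracellular loop. Tetraspanins bind one another and bind integrins, immunoglobulin-family proteins and proteases, and so gather them into patches of membrane called tetraspanin-enriched microdomains. In lymphocytes they are known for roles in adhesion, migration, antigen receptor signalling and the release of extracellular vesicles. Cd37 and Cd53 are largely restricted to leukocytes, while Cd9, Cd81, Cd82 and Cd151 are found in many tissues and Cd63 marks late endosomes and lysosomes.

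Leaving out the rRNA precursor, the libraries held about 1837514 and 2035080 reads of PLZF+ cells, and 744569 and 981885 reads of PLZF- cells. Library B7 stands apart in that its rRNA precursor was listed at 0, so a 0 in that library may be a failed estimate. Zbtb16 had 2899 and 2921 normalized counts in the PLZF+ libraries, against 310 and 699 in the PLZF- libraries, and is the gene whose reporter the cells were sorted on. The T cell genes Cd3g, Cd3e and Cd247, which encode chains of the antigen receptor complex, were present in every library. They do not tell γδ from other T cells, and the δ chain gene Trdc was not found among the deposited symbols. Cd3g stood at 943 and 951 normalized counts for PLZF+ cells, against 236 and 443 for PLZF- cells, and Cd3e at 552 and 661 for PLZF+ cells, against 182 and 367 for PLZF- cells. Cd247 stood at 569 and 656 for PLZF+ cells, against 210 and 220 for PLZF- cells (adjusted p = 0.0013, limma, and 0.091 without B7). Of the 5 genes of this marker list that were measured, 4 rose in PLZF+ cells and 1, Ptprc (CD45), fell (-1.59 ± 0.16 on the log2 scale, adjusted p = 7.1e-05, limma). The shares over all 9282 tested genes came to 2.47% for a rise and 4.99% for a fall, so these counts only describe the list. The calls of Cd3g and Cd3e were lost without A7 (adjusted p = 0.11 and 0.23) or B7 (0.14 and 0.39), and that of Cd3e also without A6 (0.17), without the filter (0.14) and on the FPKM table (0.076).

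Of the 10 tetraspanins, 4 fell in PLZF+ cells: Cd9, Cd81, Tspan13 and Tspan32. Cd9 was lowest relative to PLZF- cells, with a ratio of means of 0.0336 that counts a 0 in B7, followed by Cd81 at 0.0991, Tspan32 at 0.247 and Tspan13 at 0.253. The 3 most abundant, Cd53, Cd82 and Cd37, differed by less than 2-fold and did not pass the test, and neither did Tspan31. Of 8 tetraspanins that reached the filter on low values, 0 rose by limma at an adjusted p under 0.05, 2 were higher at an unadjusted p under 0.05 (Cd82 and Tspan31), and 0 rose in the authors' deposited Cuffdiff table. Over all 9282 tested genes, 4.99% were lower and 2.47% higher in PLZF+ cells. The median log2 fold change was -1.16 over the 8 tetraspanins and -0.03 over all tested genes. That -1.16 lies in the gap between Cd53 (-0.34) and Tspan13 (-1.98). For the 4 tested tetraspanins outside the 10, the median was -0.1. The 10 were chosen with earlier results of these data known. Cd9 and Cd81 reached the filter through their PLZF- libraries, so these counts and the median only describe the members. Marker lists of natural killer and innate lymphoid cells (summed to 220 and 135 normalized counts in PLZF+ cells, against 4366 and 3906 in PLZF- cells) and of dendritic cells (170 and 67.5 against 1874 and 944) were lower in the same libraries, and their part in these results was not tested. In such bulk libraries, fewer cells that carry a transcript and less of it per cell cannot be told apart.

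**Figure D1:**
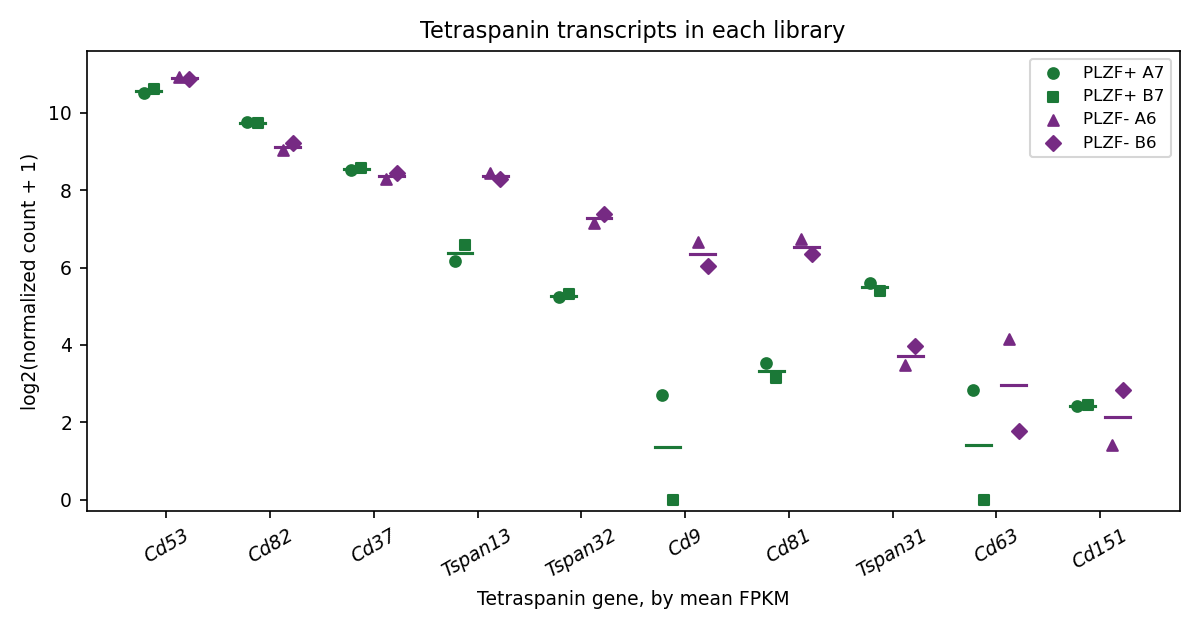
Normalized count of each tetraspanin on a log2(value + 1) scale (y) by gene (x, ordered by mean FPKM). Points are single libraries, PLZF+ left (green) and PLZF- right (purple), and bars are the means of 2 libraries on that scale. Cd9 (5.57 and 0 against 101 and 64.6 normalized counts) and Cd81 (10.5 and 7.81 against 105 and 80.5) show the widest gaps, while the points of Cd53, Cd82 and Cd37 lie close together.

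The promoter windows of the 4 tetraspanins that fell are shown because these genes passed in the same direction. Each runs from 250 bases before to 50 bases after the start that RefSeq gives on GRCm38.p6, written 5′ to 3′ on the strand of the gene. Capitals mark GGGCGG, the core of the GC box that SP and KLF factors bind.
Cd9 (chr6:125494711-125495010, minus strand): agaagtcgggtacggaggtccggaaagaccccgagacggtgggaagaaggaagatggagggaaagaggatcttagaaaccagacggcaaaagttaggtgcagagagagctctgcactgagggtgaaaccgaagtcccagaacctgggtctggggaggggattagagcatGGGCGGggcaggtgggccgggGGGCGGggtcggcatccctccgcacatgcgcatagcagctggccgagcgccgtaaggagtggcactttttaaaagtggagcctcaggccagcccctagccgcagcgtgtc
Cd81 (chr7:143052500-143052799, plus strand): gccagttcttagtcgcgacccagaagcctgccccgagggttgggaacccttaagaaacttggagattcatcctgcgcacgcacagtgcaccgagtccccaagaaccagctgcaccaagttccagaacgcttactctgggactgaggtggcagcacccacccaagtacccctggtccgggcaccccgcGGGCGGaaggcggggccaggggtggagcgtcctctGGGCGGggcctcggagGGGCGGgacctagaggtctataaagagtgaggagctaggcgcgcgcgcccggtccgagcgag
Tspan13 (chr12:36042429-36042728, minus strand): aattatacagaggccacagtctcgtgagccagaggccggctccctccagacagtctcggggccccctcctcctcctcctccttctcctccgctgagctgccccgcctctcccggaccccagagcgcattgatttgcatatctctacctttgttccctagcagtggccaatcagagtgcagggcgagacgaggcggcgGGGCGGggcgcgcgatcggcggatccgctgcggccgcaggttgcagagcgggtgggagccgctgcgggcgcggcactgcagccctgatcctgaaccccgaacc
Tspan32 (chr7:143004796-143005095, plus strand): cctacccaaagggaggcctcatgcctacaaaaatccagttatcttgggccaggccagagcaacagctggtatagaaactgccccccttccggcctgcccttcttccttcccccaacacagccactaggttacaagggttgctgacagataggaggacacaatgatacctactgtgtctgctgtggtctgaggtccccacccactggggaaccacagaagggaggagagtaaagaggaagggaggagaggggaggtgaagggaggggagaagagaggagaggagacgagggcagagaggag

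Searched on both strands, GGGCGG stood at 2 places in the Cd9 window, 3 in that of Cd81, 1 in that of Tspan13 and 0 in that of Tspan32, and 35.7% of 32851 promoter windows of the same length held it. The TATA box TATAAA stood once in the Cd81 window and in none of the other 3, against 13.6% of all windows. The RUNX core TGTGGT stood at 2 places in the Tspan32 window, and at 0 places in the other 3, against 16.8% of all windows. The windows were 61.3% (Cd9), 65.7% (Cd81), 67.3% (Tspan13) and 56.7% (Tspan32) G and C, against a median of 52.7%. None of the motifs searched is in all 4 windows, and no motif contains another. Windows of tetraspanins that did not fall varied as well. GGGCGG stood at 2 places in a Cd82 window (60.7% G and C) and in a Cd151 window (64.3%). Their other windows held fewer, and the Cd37 window (57.7%) held it at 1 place. It stood at 0 places in the windows of Cd53 (46.3%), Tspan31 (48.3%) and Cd63 (49.3%). The Cd53 window held TGTGGT at 1 place.

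Cd9 encodes a tetraspanin that binds integrins and EWI proteins, and it is needed on the egg for fusion with sperm. It had 5.57 and 0 normalized counts in PLZF+ cells (A7, B7), against 101 and 64.6 in PLZF- cells (A6, B6). These values stand for 9 and 0 reads in PLZF+ cells, and for 60 and 53 reads in PLZF- cells. The subsets did not overlap, and B7, the deepest library, listed the gene at 0, which at 3 reads allows up to 1.67 normalized counts. With that 0 taken as a count, 9 reads (exact 95% interval 4.12 to 17.1) stood for PLZF+ cells and 113 reads (93.1 to 136) for PLZF- cells. By limma the log2 fold change came to -5.00 ± 1.01 (SE, n = 2 each, adjusted p = 0.0092). The value was -3.64 without B7 (adjusted p = 0.052), -6.36 without A7 (0.0094), -4.68 without A6 (0.22) and -5.32 without B6 (0.10), and without the filter on low values the adjusted p was 0.054. In the authors' deposited table Cd9 had 1.80 FPKM in PLZF+ and 54.4 FPKM in PLZF- cells and did not pass (q = 0.61). The deposited locus of Cd9 (chromosome 6, 125460266 to 125509135, minus strand, mm10) also spans the antisense genes Gm28809 and Gm26728, and a separate locus that holds Gm26728 was at 0 in all libraries.

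Cd81 encodes a tetraspanin of the B cell coreceptor, and in human cells it is a receptor of hepatitis C virus. It had 10.5 and 7.81 normalized counts in PLZF+ cells (A7, B7), against 105 and 80.5 in PLZF- cells (A6, B6). Both PLZF- libraries lay far above both PLZF+ libraries, and each library held at least 14 reads. By limma the log2 fold change came to -3.20 ± 0.58 (SE, adjusted p = 0.0044), with a 95% interval of -4.46 to -1.95. The call was lost without B7 (-3.01, adjusted p = 0.067) and without A6 (-3.02, 0.095). The authors' deposited table had Cd81 at 4.35 FPKM in PLZF+ and 44.0 FPKM in PLZF- cells (q = 0.020). The noncoding gene R74862, on the other strand of the Cd81 locus, was listed at 0 in both PLZF+ libraries and at 0 and 9.76 normalized counts in PLZF- cells (A6, B6).

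Tspan32, also known as Tssc6, encodes a tetraspanin of blood cells that restrains T cell proliferation in mice. It had 36.5 and 39.1 normalized counts in PLZF+ cells (A7, B7), against 142 and 165 in PLZF- cells (A6, B6). The libraries of each subset lay close together and the subsets did not overlap. By limma the log2 fold change came to -1.99 ± 0.39 (SE, adjusted p = 0.0079). Leaving out any one library ended the call, with adjusted p of 0.090 without A7, 0.089 without B7, 0.069 without A6 and 0.064 without B6, while the log2 fold change stayed between -2.09 and -1.88. In the authors' deposited table the q-value was 0.0084. Tspan32 and Cd81 are neighbours on chromosome 7 (143005046 to 143019644 and 143052739 to 143067934, plus strand, mm10), with 33094 bases and no annotated protein-coding gene between them. Their deposited loci start before these genes and lie closer together (142988969 to 143019485 and 143021784 to 143067930). That of Tspan32 also spans the antisense gene Tspan32os. Tssc4, the gene beyond Cd81, had 6.19 and 22.3 normalized counts in PLZF+ cells (A7, B7), against 27.0 and 19.5 in PLZF- cells (A6, B6), so that the subsets overlapped (log2 fold change -0.89 ± 0.81, adjusted p = 0.59, limma).

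Tspan13 encodes a tetraspanin that in human blood is known from plasmacytoid dendritic cells. It had 70.6 and 95.4 normalized counts in PLZF+ cells (A7, B7), against 344 and 311 in PLZF- cells (A6, B6). It was the most abundant of the 4 that fell, and each library held at least 114 reads of it. By limma the log2 fold change came to -1.98 ± 0.30 (SE, adjusted p = 0.0014), and the call was lost without A6 (-1.91, adjusted p = 0.060). The authors' deposited table gave a q-value of 0.0019. Of the 4, only Tspan13 passed without B7 (adjusted p = 0.026).

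Cd53 and Cd37, the leukocyte tetraspanins, were abundant in both subsets. Cd53 had 1443 and 1561 normalized counts in PLZF+ cells (A7, B7), against 1940 and 1873 in PLZF- cells (A6, B6). The subsets did not overlap, yet the log2 fold change of -0.34 (95% interval -0.69 to 0.00) did not pass (adjusted p = 0.25, limma). Cd37 had 364 and 379 normalized counts in PLZF+ cells (A7, B7), against 312 and 349 in PLZF- cells (A6, B6). Its log2 fold change was 0.17 with a 95% interval of -0.32 to 0.66 (adjusted p = 0.73, limma), an interval that leaves out a change of 2-fold in either direction.

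Cd82, which encodes a tetraspanin known as a suppressor of metastasis, had higher values in PLZF+ cells. It had 870 and 843 normalized counts in PLZF+ cells (A7, B7), against 523 and 593 in PLZF- cells (A6, B6). The subsets did not overlap, but the log2 fold change of 0.62 ± 0.19 (SE, 95% interval 0.20 to 1.04) did not pass (adjusted p = 0.081, limma). It passed with libraries scaled to equal totals (0.73, adjusted p = 0.048) and with the letter of the library code as a term (0.62, adjusted p = 0.021).

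Tspan31, which is amplified together with CDK4 in human sarcomas, had 47.7 and 40.7 normalized counts in PLZF+ cells (A7, B7), against 10.1 and 14.6 in PLZF- cells (A6, B6). Both PLZF+ libraries lay above both PLZF- libraries, which held 6 and 12 reads, and the log2 fold change of 1.77 ± 0.63 (SE) did not pass (adjusted p = 0.13, limma). The deposited locus of Tspan31 (chromosome 10, 127063603 to 127070261, mm10) has the same bounds as that of Cdk4, a cell cycle kinase on the other strand, so their reads may be split unreliably. Cdk4 had 133 and 116 normalized counts in PLZF+ cells (A7, B7), against 60.7 and 75.6 in PLZF- cells (A6, B6), and did not pass either (log2 fold change 0.86 ± 0.37, adjusted p = 0.21, limma).

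Across the 8 tested tetraspanins, 5 were lower and 3 higher in both PLZF+ libraries than in both PLZF- libraries. Among all tested genes that separation held for 27.2% as lower and for 24.1% as higher. Cd9 and Cd81 are among the 5 and reached the filter through their PLZF- libraries, so these counts only describe the members. In the authors' deposited table, 3 of the 10 (Cd81, Tspan13 and Tspan32) were lower and 0 higher at a q-value under 0.05, where 3.91% of its 9226 tested loci were lower and 1.82% higher. Cd151 is among the 10 but was not tested there.

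**Figure D2:**
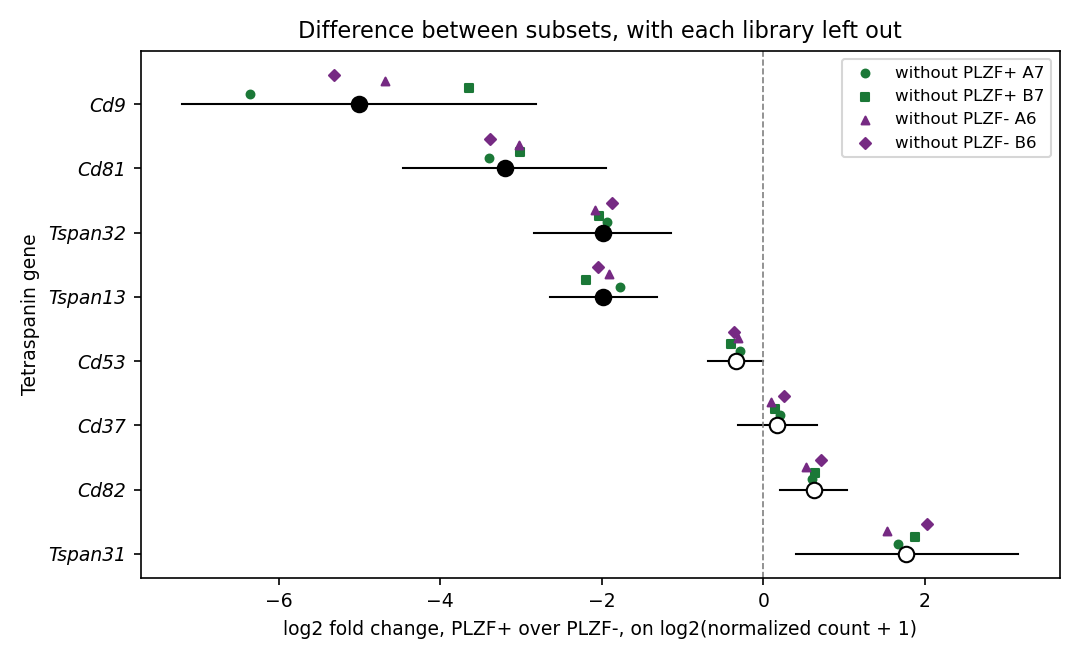
Log2 fold change of PLZF+ over PLZF- cells (x, on log2(normalized count + 1)) for the 8 tested tetraspanins (y). Large circles are the fit on all 4 libraries (filled where the adjusted p was under 0.05), lines are 95% intervals, and small symbols are fits without 1 library. Cd9 moves the most, between -6.36 and -3.64, while no gene changes sign.

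The filter left out 2 tetraspanins, both scarce. Cd63, the tetraspanin of lysosomes and secretory granules, had 6.19 and 0 normalized counts in PLZF+ cells (A7, B7), against 16.9 and 2.44 in PLZF- cells (A6, B6). Library A7 lay between the PLZF- libraries, so the subsets overlapped. These values rest on 10 reads in PLZF+ libraries (exact 95% interval 4.80 to 18.4) and 12 in the shallower PLZF- libraries (6.20 to 21.0). Cd151, the partner of laminin-binding integrins, had 4.34 and 4.46 normalized counts in PLZF+ cells (A7, B7), against 1.69 and 6.10 in PLZF- cells (A6, B6). It overlapped as well, with 15 reads (8.40 to 24.7) in PLZF+ and 6 reads (2.20 to 13.1) in PLZF- libraries. Without the filter neither passed (log2 fold changes -1.55 and 0.31, adjusted p = 0.64 and 0.90, limma).

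Levels between genes were compared in FPKM, which is per length. In PLZF+ cells Cd82 (330 ± 9.07 FPKM, SD, n = 2) and Cd53 (317 ± 18.6) led with overlapping values, ahead of Cd37 (195 ± 2.27). Next came Tspan13 (29.0 ± 7.25), Tspan31 (19.7 ± 1.99) and Tspan32 (17.1 ± 0.971), and Cd81 (4.16 ± 0.831), Cd63, Cd9 and Cd151 lay at or under 5.71 FPKM in each PLZF+ library. In PLZF- cells Cd53 (400 ± 1.86 FPKM, SD, n = 2) stood alone at the top, then Cd82 (222 ± 15.9), Cd37 (178 ± 16.0), Tspan13 (112 ± 7.64) and Tspan32 (71.6 ± 6.73). Cd9 (52.6 ± 16.1) and Cd81 (42.6 ± 7.65) overlapped in PLZF- cells, and Cd63 (16.1 and 2.36 FPKM) overlapped both Tspan31 (4.55 and 6.62) and Cd151 (0.691 and 2.51), which did not overlap each other.

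The summed level of the 10 genes was 915 and 924 FPKM in PLZF+ cells (A7, B7), against 1097 and 1095 in PLZF- cells (A6, B6). The 4 that fell made up 5.30% and 6.01% of that sum in PLZF+ libraries, against 27.1% and 23.9% in PLZF- libraries, a description only since they were picked by the same comparison. Cd53, Cd82 and Cd37 together made up 91.6% and 91.8% in PLZF+ libraries, against 71.0% and 75.0% in PLZF- libraries. The ratio of Cd82 to Cd53 was 1.11 and 0.981 in PLZF+ libraries, against 0.526 and 0.586 in PLZF- libraries.

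**Figure D3:**
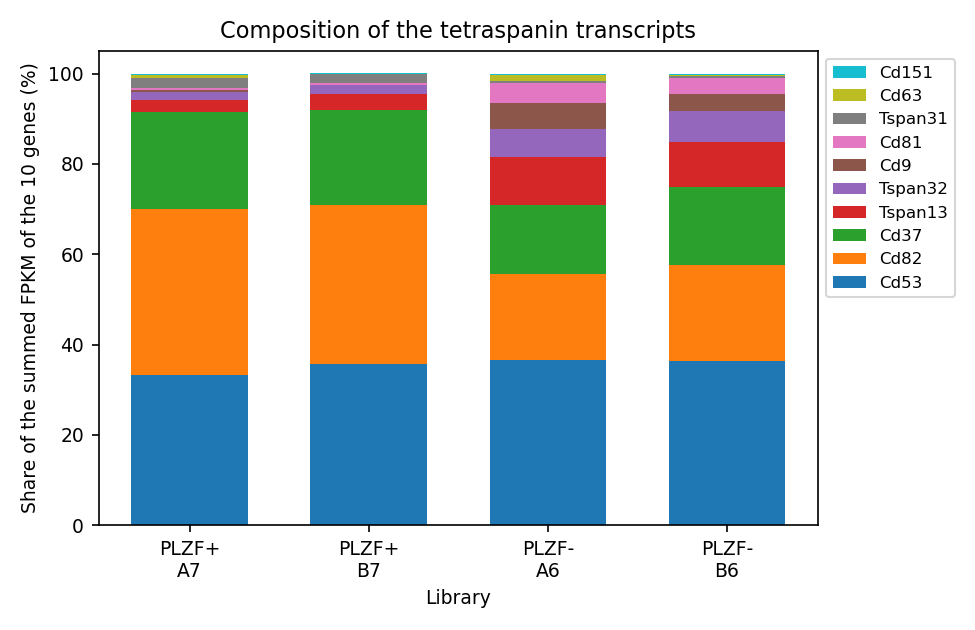
Share of each tetraspanin in the summed FPKM of the 10 genes (y, percent) in each library (x), PLZF+ left and PLZF- right. Cd53 holds 33.2% to 36.5% in every library, while Cd82 holds 36.8% and 35.1% in PLZF+ against 19.2% and 21.3% in PLZF- libraries.

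Of 21 other tetraspanin genes, 10 were listed at 0 in all libraries and 4 reached the filter. By limma 0 of those 4 passed, and 0 passed in the authors' deposited table. At an unadjusted p under 0.05, whose share over all genes is not given here, 1 of those 4 was lower (Tspan3). Tspan14, which guides the protease ADAM10 to the cell surface, was the most abundant of them, with 124 and 234 normalized counts in PLZF+ cells (A7, B7), against 108 and 112 in PLZF- cells (A6, B6), and limma put the log2 fold change at 0.62 ± 0.36 (adjusted p = 0.36). Tspan3 had 29.1 and 11.2 normalized counts in PLZF+ cells (A7, B7), against 45.5 and 68.3 in PLZF- cells (A6, B6), and limma put the log2 fold change at -1.57 ± 0.62 (adjusted p = 0.18).

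Integrins and adhesion partners were tested for all 10 listed genes, of which 1 rose, 1 fell and 8 did not pass (median log2 fold change 0.21). Among all tested genes, 2.47% were higher and 4.99% lower, so the counts of this list and the lists below only describe them. Itga4, the α4 integrin chain that associates with CD81 and CD82, had 111 and 100 normalized counts in PLZF+ cells (A7, B7), against 1142 and 718 in PLZF- cells (A6, B6). It fell by 3.09 ± 0.27 on the log2 scale (adjusted p = 2.9e-05, limma). Itgb7, the β7 chain that pairs with α4, rose instead, with 647 and 934 normalized counts in PLZF+ cells (A7, B7), against 263 and 491 in PLZF- cells (A6, B6), and limma put the log2 fold change at 1.11 ± 0.29 (adjusted p = 0.038). That call was lost without A7 (1.37, adjusted p = 0.17), B7 (0.84, 0.50) or A6 (0.66, 0.26), and also with a pseudocount of 0.25 (adjusted p = 0.057), without the filter (0.17) and on the FPKM table (0.12). Itgb1, the β1 chain, differed by -1.01 ± 0.34 on the log2 scale and did not pass (adjusted p = 0.11, limma).

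Of 12 immunoglobulin-family and receptor partners, 4 were tested, 1 fell and 3 did not pass (median log2 fold change 0.14). The share lower over all tested genes was 4.99%. Cd2, an adhesion receptor of T cells and other lymphocytes, had 44.0 and 27.3 normalized counts in PLZF+ cells (A7, B7), against 164 and 222 in PLZF- cells (A6, B6), and limma put the log2 fold change at -2.42 ± 0.41 (adjusted p = 0.0030). Its call was lost without B7 (adjusted p = 0.067), A6 (0.050) or B6 (0.062). Igsf8, the EWI-2 partner of CD9 and CD81, differed by 0.48 ± 0.63 on the log2 scale (adjusted p = 0.72, limma).

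Among 9 proteases, cytoskeletal linkers and kinases, all tested, 2 fell and 7 did not pass (median log2 fold change 0.03). The share lower over all tested genes was 4.99%. The 2 that fell were the protein kinase C genes Prkcb and Prkcq, a family that some tetraspanins recruit. Prkcb had 46.5 and 45.2 normalized counts in PLZF+ cells (A7, B7), against 364 and 226 in PLZF- cells (A6, B6), and limma put the log2 fold change at -2.62 ± 0.36 (adjusted p = 0.00068). Prkcq, the isoform of the T cell synapse, had 99.7 and 118 normalized counts in PLZF+ cells (A7, B7), against 396 and 307 in PLZF- cells (A6, B6), and limma put the log2 fold change at -1.68 ± 0.28 (adjusted p = 0.0030). The call of Prkcq was lost without A7 (adjusted p = 0.074), B7 (0.056) or A6 (0.079). Adam10 and the linkers Ezr and Msn, with log2 fold changes of 0.13, 0.03 and 0.19, did not pass.

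Of 14 genes of extracellular vesicle formation, 12 were tested, 1 fell and 11 did not pass (median log2 fold change 0.20). The share lower over all tested genes was 4.99%. Rab27b, a small GTPase of vesicle docking, had 178 and 203 normalized counts in PLZF+ cells (A7, B7), against 631 and 402 in PLZF- cells (A6, B6), and limma put the log2 fold change at -1.40 ± 0.27 (adjusted p = 0.0068). Its call was lost without A7 (adjusted p = 0.15), B7 (0.11) or A6 (0.11), and on the FPKM table (0.098).

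The 3 tested genes nearest to Cd9 over the 4 libraries, by Euclidean distance in log2(normalized count + 1), were Dpp4 (distance 0.41), Myb (0.74) and Itm2a (0.76). Dpp4, a surface peptidase also called CD26, had 6.19 and 0 normalized counts in PLZF+ cells (A7, B7), against 128 and 56.1 in PLZF- cells (A6, B6). The 3 nearest to Cd81 were Card6 (0.44), Slc14a1 (0.51) and Fam49a (0.65). Card6 had 9.91 and 9.49 normalized counts in PLZF+ cells (A7, B7), against 82.7 and 75.6 in PLZF- cells (A6, B6). Like Cd9, the genes Dpp4, Myb and Itm2a were at 0 in B7, where a 0 may be a failed estimate. All genes named in this paragraph reached the filter through their PLZF- libraries. These distances rest on 4 libraries and only describe the pattern.

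Some genes listed as markers of other cells were also lower in PLZF+ libraries. Whether their transcripts came from other cells or from the sorted γδ T cells was not tested. Of 8 natural killer and innate lymphoid markers, 7 were tested and 7 fell. Their summed level was 220 and 135 normalized counts in PLZF+ cells (A7, B7), against 4366 and 3906 in PLZF- cells (A6, B6). Ncr1, a natural killer receptor, had 3.72 and 3.91 normalized counts in PLZF+ cells (A7, B7), against 693 and 694 in PLZF- cells (A6, B6), and Gata3 (log2 fold change -2.82), the locus of Klrb1c (-4.40) and Klrd1 (-7.35) fell too. Of 9 dendritic cell markers, 6 fell and 3 did not pass, and the list summed to 170 and 67.5 normalized counts in PLZF+ cells (A7, B7), against 1874 and 944 in PLZF- cells (A6, B6). Siglech, a receptor of plasmacytoid dendritic cells, was at 0 in both PLZF+ libraries and had 145 and 90.2 normalized counts in PLZF- cells (A6, B6), while Irf8, Tcf4 and the locus of H2-Aa fell as well (log2 fold changes -4.28, -5.10 and -4.00). Without A6 the adjusted p of Siglech, Irf8, Tcf4 and H2-Aa was 0.14, 0.073, 0.20 and 0.13, and without B6 those of Siglech, Tcf4 and H2-Aa were 0.063, 0.10 and 0.081. The part of such cells in the levels of Cd9, Cd81, Tspan13 and Tspan32 was not tested. Ncr1, Klrd1, Siglech and Tcf4 reached the filter only through their PLZF- libraries, so the counts of these lists only describe the genes. Over all tested genes, 4.99% were lower in PLZF+ cells.

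Of 8 mast cell and granulocyte markers, 4 were tested and 1 fell, Kit (18.0 and 12.3 against 278 and 248 normalized counts). The subsets overlapped for Cpa3, Mcpt4 and Tpsb2, which did not pass (adjusted p = 0.19, 0.48 and 0.54, limma). Cpa3 had 73.7 and 17.9 normalized counts in PLZF+ cells (A7, B7), against 294 and 65.9 in PLZF- cells (A6, B6). In B7 Mcpt4 was listed at 0 and Tpsb2 at 1.12 normalized counts, while in A7 both lay above B6. The list summed to 263 and 31.3 normalized counts in PLZF+ cells (A7, B7), against 820 and 460 in PLZF- cells (A6, B6), and S100a8, S100a9 and Csf3r were at 0 in all libraries. Its part in the tetraspanin levels was not tested. The B cell markers Cd79a, Ms4a1, Pax5, Cd22 and Ebf1 were at 0 in all libraries, and Cd79b was higher in PLZF+ cells without passing (33.4 and 29.6 against 1.69 and 7.32 normalized counts, adjusted p = 0.13, limma). Antibody transcripts moved the other way: of 5 tested immunoglobulin and joining chain entries, looked at after their values were seen, 4 fell in PLZF+ cells and 1 did not pass. Several entries share the same bounds on chromosome 6 (67555636 to 70740554, the Igk region), so the 5 are not separate loci. Those entries and the joining chain gene were at 0 in both PLZF+ libraries and reached the filter through PLZF- libraries alone, so these counts only describe them. The Igh locus (immunoglobulin heavy chain) had 13.6 and 20.1 normalized counts in PLZF+ cells (A7, B7), against 2875 and 687 in PLZF- cells (A6, B6), and limma put the log2 fold change at -6.32 ± 0.55 (adjusted p = 7.9e-05). The joining chain gene IGJ was listed at 0 in both PLZF+ libraries and had 584 and 257 normalized counts in PLZF- cells (A6, B6). The part of antibody-making cells in the tetraspanin levels was not tested. The platelet markers Pf4, Ppbp and Gp9 were at 0 in all libraries, and Itgb3, the one platelet marker of 6 that was tested, did not pass (adjusted p = 0.37, limma). Of 10 macrophage markers 0 reached the filter, with a summed level of 7.43 and 0.558 normalized counts in PLZF+ cells (A7, B7), against 21.9 and 41.5 in PLZF- cells (A6, B6), and Lyz2 (lysozyme) had 1.24 and 0 in PLZF+ and 20.2 and 6.10 in PLZF- cells. Stromal markers other than Pdgfrb were at 0 in all libraries, and the stromal list summed to 22.3 and 2.79 normalized counts in the PLZF+ libraries and 0 in both PLZF- libraries. The adipocyte list summed to at most 8.44 normalized counts in any library, and Fabp4 had 2.48 and 0 in PLZF+ and 0 in both PLZF- libraries. Of 6 endothelial markers, Pecam1 alone was tested and did not pass (adjusted p = 0.37, limma).

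**Figure D4:**
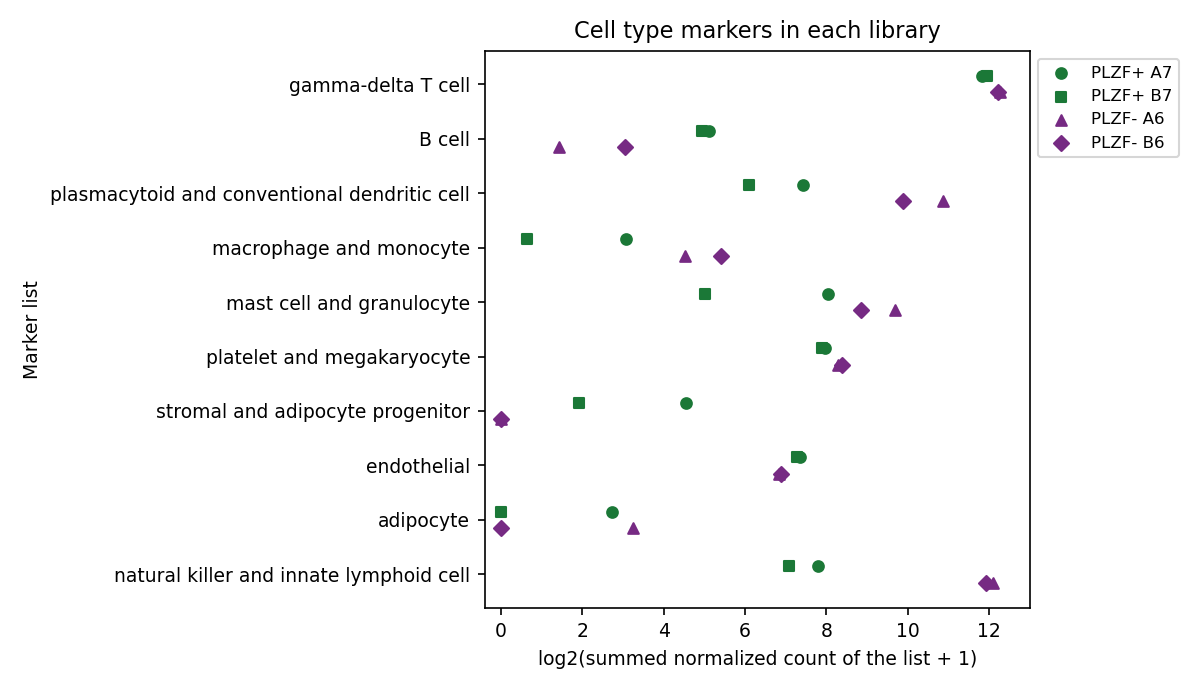
Summed normalized count of each marker list on a log2(value + 1) scale (x) by list (y). Points are single libraries, PLZF+ above (green) and PLZF- below (purple). The natural killer and innate lymphoid list (220 and 135 against 4366 and 3906) and the dendritic cell list (170 and 67.5 against 1874 and 944) lie lower in PLZF+ libraries, while stromal, adipocyte and macrophage lists are near 0 in at least 1 library.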

How the data were processed

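Transcripts of sorted γδ T cells were measured by SMART-seq2 in 4 pooled libraries. The submitters' processing notes name the build mm10 and the tools HISAT 0.1.6, SAMtools 1.2, Cufflinks 1.2 and Cuffdiff. Which annotation was counted, and whether strand was used, is not given in the sources used here. Normalized counts per locus were deposited as a Cuffnorm table. The deposited values are a signal, estimated counts scaled by library, and not raw counts. FPKM per locus was deposited in a second Cuffnorm table, and the deposited Cuffdiff table gives a p-value and a q-value per locus. The direction of a Cuffdiff call was read from the group means of the FPKM table.

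Overlapping loci of one symbol were summed, which left 46165 genes. Loci without a symbol made up 2.63% of rows and kept their locus name. The rRNA precursor Rn45s, listed at 0 in PLZF+ library B7 and at 26.8% to 33.2% of the total in the other libraries, was left out of totals and tests. The value of 1 read was taken as the step between low values (0.558 to 1.69 normalized counts), and 94.5% to 95.6% of low values were whole reads to within 0.05 of a read. Reads were computed from that step and rounded. Since not every value was whole, they are estimates, and no count test was run on them. Intervals on reads are exact Poisson intervals that treat them as counts and cover counting error only.

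The filter kept genes whose mean normalized count reached 10. They were tested with limma 3.58.1 in R 4.3.3, two-sided, with empirical Bayes moderation (trend and robust), on log2(normalized count + 1). The p-values were Benjamini-Hochberg adjusted over all 9282 tested genes, with a threshold of 0.05. The fit was tested on data simulated with a set spread between libraries. There it called 11 of 50 genes changed 2-fold, 48 of 50 changed 4-fold and 1 of 9082 unchanged genes. A change near 2-fold can therefore be missed. Python 3.11.15 with numpy 2.4.6, pandas 2.3.3, matplotlib 3.10.9 and scipy 1.17.1 served for tables and plots. Promoter windows came from RefSeq on GRCm38.p6 (the assembly of mm10), and all 10 tetraspanins had at least 1. Gene positions came from GENCODE M21 on GRCm38.

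The tetraspanins, the partner and marker lists and the alternatives were chosen with earlier results of these data known. The text names all 10 tetraspanins, up to 4 members of each list past the threshold with the smallest p (where none passed, the one with the highest mean FPKM), Zbtb16, and the 3 genes nearest to Cd9 and to Cd81 by Euclidean distance. Predicted and clone-named genes were left out of the nearest ones. Any other gene was named after its values were seen. The alternatives were other pseudocounts, filters and scalings, the FPKM table, a fit without trend and robust moderation, each library left out, the letter of the library code as a term, and the deposited Cuffdiff calls.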

Additional observations from a re-analysis of the deposited data

How the results depend on the processing

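Over 110 alternative values of the 8 tested tetraspanins, 0 changed direction, 15 lost a call and 2 gained one. The gained calls were both of Cd82. In a fit with neither trend nor robust moderation, 1 of the 4 tetraspanins that fell kept its call, Cd81 (adjusted p = 0.032), while Cd9, Tspan13 and Tspan32 had adjusted p of 0.10, 0.093 and 0.082. In that fit the calls of Itgb7 (0.35), Cd2 (0.083), Prkcb (0.062), Prkcq (0.13), Rab27b (0.20), Cd3g (0.21), Cd3e (0.31), Cd247 (0.14), Ptprc (0.13), Irf8 (0.056), Tcf4 (0.094), H2-Aa (0.12) and Zbtb16 (0.10) were lost as well. Tcf4 also lost its call on the FPKM table (0.081). In the Cuffdiff table Tcf4 (q = 0.59), Ncr1 (0.059) and Klrd1 (0.60) did not pass. Cd9 also lost its call without a filter (0.054) and in the Cuffdiff table (0.61), and it was not tested at a minimum mean of 50. With 1 library left out, 0 to 3 tetraspanins fell and 0 to 0 rose. The lone library of a subset is then assumed to vary like the other subset. Scaling to equal totals made 1 tetraspanin higher, as did the letter of the library code as a term.

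Over all genes, 229 were higher and 463 lower. Without a filter the counts were 109 and 277, with neither trend nor robust moderation 28 and 186, and 20 to 245 and 100 to 266 with 1 library left out. No paired analysis was possible because columns carry no replicate number and no label says that the code's letter pairs libraries. A fit with that letter as a term, which sets A7 beside A6 and B7 beside B6, gave 426 higher and 694 lower. The cause of these differences was not tested. Scaling to equal totals moved the median log2 fold change of all tested genes to 0.08, against -0.03. Cd63 and Cd151 held at most 15 reads in either subset.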
